A study of Mus musculus with 16 samples.

Results

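ATP-binding cassette (ABC) genes were taken as the 50 gene symbols, of 54392 in the count table, that carry the family's subfamily letter (A to G) and number, such as Abcb1a or Abcg5. The libraries are bulk RNA-seq of colonocytes, the epithelial cells of the colon, from C57BL/6 mice. All mice received a test diet for 3 weeks: 9 libraries came from the corn oil with cellulose group and 7 from the fish oil with pectin group, and age and sex are not among the labels. Library totals ran from 13996288 to 19512755 counts. The labels name 10 libraries with a GC prefix (5 in each diet), and the other 6 (4 fed corn oil/cellulose, 2 fed fish oil/pectin) lack it. The labels do not explain this name form, and every diet effect below was fitted with a term for it. Colonocyte markers (Epcam, Cdh1, Krt8, Krt20, Cdx2, Vil1, Slc26a3 and others) summed to 14500 to 24600 CPM (counts scaled to library size with TMM factors) in every library. Markers of other cells were also read. The highest count of any 1 marker was 12 for B and plasma cells, 281 for T cells and 1454 for myeloid cells. It was 24 for fibroblasts, 46 for glia and neurons, 146 for endothelium and 273 for smooth muscle and pericytes.

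ABC proteins bind and hydrolyse ATP through a conserved pair of nucleotide-binding folds, and most use that energy to move a substrate across a membrane. In the gut, exporters at the luminal face return drugs, dietary toxins and plant sterols to the lumen, while others act at the blood side, in mitochondria, in peroxisomes or in lysosomes. Members of subfamilies E and F have no membrane domain and work on the ribosome. Cftr, Tap1 and Tap2 belong to the same family under other symbols and were read from a separate list.

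Abcb1a encodes P-glycoprotein, an apical pump for many lipophilic drugs; in mice its function is shared with the close paralog Abcb1b. The genes lie in a row with Abcb4, all on the plus strand of chromosome 5 (GRCm38): Abcb1a (ENSMUSG00000040584.8) at 8660077 to 8748575, Abcb1b at 8798147 to 8866315, starting 49.6 kb further on, and Abcb4 at 8893717 to 8959231. The sequence just before the start of the first 2 is given, and whether it bears on their levels was not tested. Each is 250 bases, 5′ to 3′, from RefSeq (GRCm38.p6), with matches to searched motifs in capitals: the CCAAT box (CCAAT, also seen as ATTGG on the other strand) and the GC box (GGGCGG).
Abcb1a upstream, chr5:8566841-8567090, plus strand: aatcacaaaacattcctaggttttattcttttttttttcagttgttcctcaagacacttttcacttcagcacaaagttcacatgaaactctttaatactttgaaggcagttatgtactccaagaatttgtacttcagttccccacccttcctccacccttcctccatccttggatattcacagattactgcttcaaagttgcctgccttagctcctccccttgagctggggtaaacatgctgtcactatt
Abcb1b upstream, chr5:8797897-8798146, plus strand: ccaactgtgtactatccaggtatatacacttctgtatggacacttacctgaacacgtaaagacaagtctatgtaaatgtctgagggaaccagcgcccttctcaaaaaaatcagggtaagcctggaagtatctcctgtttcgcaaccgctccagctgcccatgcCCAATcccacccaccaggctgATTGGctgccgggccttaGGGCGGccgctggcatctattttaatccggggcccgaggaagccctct
The Abcb1a window held none of 6 motifs searched on both strands (the CCAAT box, the GC box, the E box CACGTG, the D box TTATGTAA, the TATA motif TATAAA and the antioxidant response core TGACNNNGC), which says only that these letters are not in it. The Abcb1b window held CCAAT on each strand, 87 and 66 bases before the start, and GGGCGG at 48 bases. Over 32851 RefSeq windows of this length 33.8% held CCAAT and 32.7% GGGCGG. The RefSeq start used for Abcb1a lies 93 kb before the gene start in GENCODE M21, inside the gene Rundc3b on the other strand. The window belongs to that start and not to every Abcb1a transcript.

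Abcb1a fell with fish oil/pectin, and it was the ABC gene with the lowest p. With corn oil/cellulose it was at 493 CPM in the lowest, 598 CPM in the median and 763 CPM in the highest library, and with fish oil/pectin at 131, 226 and 340 CPM. Every fish oil/pectin library lay below every corn oil/cellulose library, the lowest being fish oil/pectin library 7 and the highest corn oil/cellulose library 1. Adjusted for the name form, the level was 2.33-fold lower (log2 fold change -1.22 ± 0.17 SE, edgeR adjusted p = 0.000429). Over all genes tested, 0.999% had every fish oil/pectin library below every corn oil/cellulose library, and of the ABC genes Abca3 and Abca5 also did; the reverse held for 2.35% of all genes and 0 ABC genes. In 1 edgeR fit of both name forms the log2 fold change was -1.19 ± 0.22 with the GC prefix (adjusted p = 0.000498). Without the prefix it was -1.27 ± 0.31 and did not pass (adjusted p = 0.199). The difference between forms, 0.08 ± 0.37, did not pass either (adjusted p = 0.925). Leaving out any 1 library gave log2 fold changes from -1.30 to -1.12, and the 6 libraries without the prefix fitted alone gave -1.26 (adjusted p = 0.0371).

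**Figure D1:**
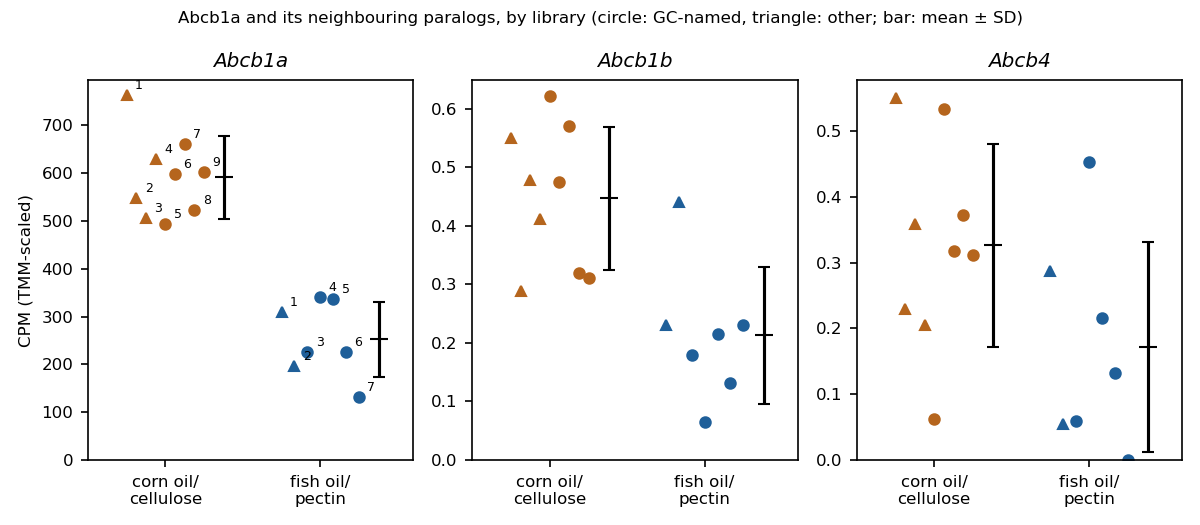
Level of Abcb1a, Abcb1b and Abcb4 in each library (y axis, TMM-scaled CPM; a separate scale for each gene) by diet; numbers beside Abcb1a points are replicate numbers and the bar beside each group is the mean ± SD (9 corn oil/cellulose, 7 fish oil/pectin). All 7 fish oil/pectin points for Abcb1a lie at or below 340 CPM and all 9 corn oil/cellulose points at or above 493 CPM, while Abcb1b and Abcb4 stay below 1 CPM.

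P-glycoprotein transcripts came almost wholly from Abcb1a. Abcb1b had 1 to 11 counts in any library, 68 in all corn oil/cellulose and 26 in all fish oil/pectin libraries, against 90300 and 29947 for Abcb1a. Abcb4, which flips phosphatidylcholine into bile in the liver, had 0 to 11 counts in any library (51 and 20 in all), Abcb11, the bile salt export pump, 0 to 4 (11 and 3), and Abcb5 was at 0 in all libraries. All 4 paralogs were too low for the edgeR test. Because Abcb1a and Abcb1b share long near-identical stretches, the few Abcb1b counts may include misassigned Abcb1a reads. The log2 ratio of Abcb1a to Abcb1b averaged 10.31 ± 0.39 (SD, n = 9) with corn oil/cellulose and 10.10 ± 1.03 (SD, n = 7) with fish oil/pectin, and the difference between diets did not pass (-0.25 within name forms, two-sided exact permutation over 3780 assignments, adjusted p = 0.691 over 2 paralogs). For Abcb4 the ratio averaged 10.84 ± 0.72 and 10.70 ± 0.90 (difference -0.17, exact permutation adjusted p = 0.691). At these counts a paralog's own change could not be measured, so the ratios do not show that Abcb1a moved alone or with its paralogs.

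Per kilobase of exon Abcb1a was the most abundant ABC transcript with corn oil/cellulose, at 108 ± 15.7 CPM per kb (SD, n = 9), and with fish oil/pectin it was at 46.0 ± 14.3 CPM per kb (SD, n = 7). The levels next in order were close in both diets. Abcc3, a blood-side exporter of glucuronides and bile salts, was at 67.0 ± 9.33 and 68.1 ± 13.5 CPM per kb, and Abcd3, which carries acyl-CoAs into peroxisomes, at 47.3 ± 2.47 and 46.1 ± 5.72. The ribosome-associated factors Abcf1 (35.2 ± 2.98 and 40.2 ± 3.25), Abcf2 (19.5 ± 2.25 and 23.1 ± 2.22) and Abcf3 (17.1 ± 1.11 and 18.4 ± 1.64 CPM per kb) followed. With corn oil/cellulose Abcb1a stood above Abcc3 by more than their SDs, whereas with fish oil/pectin its range overlapped that of Abcd3. Abcb1a gave 22.6% of all ABC counts in the median corn oil/cellulose library (19.5% to 27.1%) and 11.1% in the median fish oil/pectin library (6.1% to 14.8%). All 50 genes together gave 0.261% (0.243% to 0.291%) and 0.218% (0.189% to 0.223%) of a library's counts, and without Abcb1a 0.201% (0.191% to 0.213%) and 0.187% (0.168% to 0.201%).

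Of the 50 genes, 33 passed the filter on low counts and were tested; the other 17 had at most 11 counts in any library. With fish oil/pectin 9 of the 33 fell (27.3%) and 2 rose (6.06%), where over all 14321 genes 20.1% fell and 21.7% rose. The median log2 fold change was -0.11 over the tested ABC genes and -0.00 over all genes, and 21 of the 33 lay below 0. The members that fell were Abcb1a, Abcc10, Abca5, Abca3, Abcc6, Abcc1, Abca1, Abcc5 and Abcd4, and those that rose Abcf1 and Abcf2. By subfamily 3 of 8 tested genes fell in A, 1 of 6 in B, 4 of 8 in C and 1 of 3 in D, 2 of 3 rose in F, and neither the 1 tested gene of E nor the 4 of G passed over all libraries. The median log2 fold changes were -0.39 in A, 0.01 in B, -0.39 in C, -0.03 in D, 0.16 in F and -0.04 in G. In bulk RNA, fewer cells of a type and less RNA per cell cannot be told apart.

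**Figure D2:**
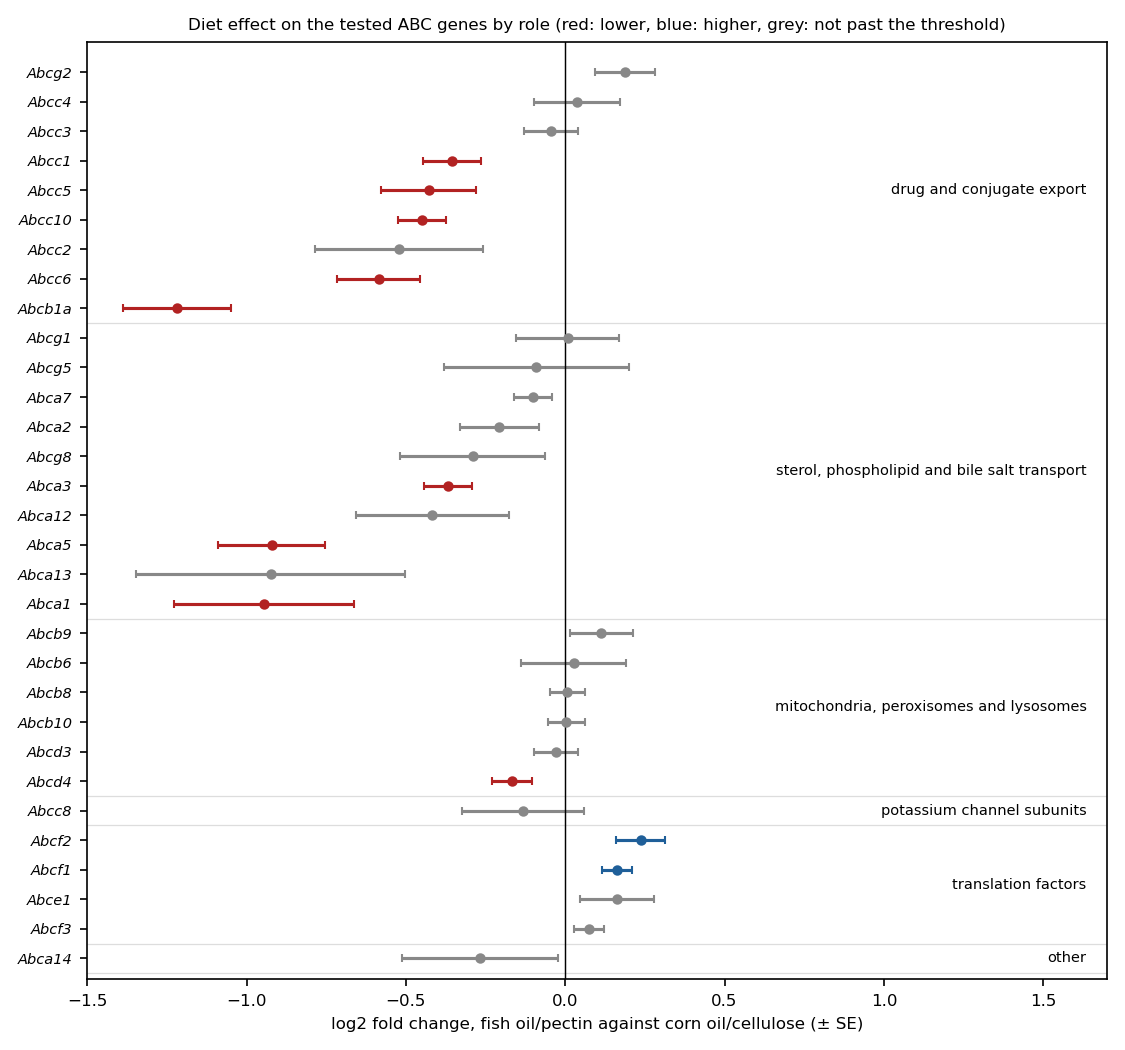
Log2 fold change (x axis, fish oil/pectin against corn oil/cellulose, ± SE) of 31 of the 33 tested ABC genes, grouped by role on the y axis; red marks the 9 that fell, blue the 2 that rose and grey those that did not pass. Abcb1a at -1.22 is the farthest from 0, and the 4 translation factors are all right of 0.

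Of the 11 exporters of drugs and conjugates, 9 were tested and 5 fell, where 20.1% of all genes fell. The 5 were Abcb1a and the multidrug resistance-associated proteins Abcc10, Abcc6, Abcc1 and Abcc5. Abcc10, an exporter of lipophilic anticancer drugs, was at 54.4, 68.8 and 76.8 CPM (lowest, median and highest) with corn oil/cellulose and at 41.7, 49.3 and 55.4 CPM with fish oil/pectin. In 6 of 7 fish oil/pectin libraries it lay below the lowest corn oil/cellulose library, and its log2 fold change was -0.45 ± 0.08 (SE, edgeR adjusted p = 0.000542). Abcc6, known for its part in releasing ATP from liver cells and for mineralisation of soft tissue when lost, ran from 14.7 through 19.5 to 26.3 CPM and from 8.55 through 13.8 to 16.1 CPM (log2 fold change -0.59 ± 0.13, adjusted p = 0.00221). The groups overlapped only through the lowest corn oil/cellulose library, number 8, and the 2 highest fish oil/pectin libraries. Abcc5, which exports cyclic nucleotides, ran from 12.5 through 19.6 to 26.0 CPM and from 8.53 through 14.3 to 17.8 CPM (-0.43 ± 0.15, adjusted p = 0.0272). Its call depended on corn oil/cellulose libraries 5 (adjusted p = 0.0531 without it) and 9 (0.0658) and on fish oil/pectin library 1 (0.0528).

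Abcc1, the exporter of glutathione conjugates and leukotriene C4, fell by 0.36 ± 0.09 on the log2 scale over all libraries (adjusted p = 0.00484), but the 2 name forms differed. In GC-named libraries it was at 52.9 to 63.4 CPM with corn oil/cellulose and 32.2 to 42.4 CPM with fish oil/pectin. In the others it was at 51.6 to 60.9 CPM and at 56.9 and 60.1 CPM. Abcg2, the breast cancer resistance protein, an apical exporter of urate and dietary compounds, did not pass over all libraries (0.19 ± 0.09, adjusted p = 0.112), though it did without corn oil/cellulose library 1 (adjusted p = 0.0442) or fish oil/pectin library 2 (0.0411). It was at 105 to 132 CPM and 133 to 176 CPM in the GC-named libraries, and at 107 to 135 CPM against 104 and 102 CPM in the others. Abcc3 ran from 311 through 386 to 490 CPM and from 279 through 397 to 472 CPM. Of its fish oil/pectin libraries 2, the ones without the prefix (279 and 310 CPM), lay below the lowest corn oil/cellulose library and 0 above the highest (log2 fold change -0.05 ± 0.09, adjusted p = 0.699). Abcc4, an exporter of cyclic AMP and prostaglandins (0.04 ± 0.14), and Abcc2, the apical conjugate exporter of liver and small intestine (-0.52 ± 0.27, adjusted p = 0.122; 0.894 ± 0.296 CPM with corn oil/cellulose), did not pass either. The exporters summed to 1100 to 1480 CPM in corn oil/cellulose and 779 to 1120 CPM in fish oil/pectin libraries. These sums include Abcb1a, at a mean of 591 CPM with corn oil/cellulose and 252 CPM with fish oil/pectin. Abcc3, the next most abundant exporter in CPM, was at means of 382 and 388 CPM. All ABC genes except Abcb1a summed to 1850 to 2080 CPM and 1800 to 2070 CPM.

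Of 18 transporters of sterols, phospholipids and bile salts, 10 were tested, and Abca3, Abca5 and Abca1 fell, where 20.1% of all genes fell. Abca3, best known for loading phospholipid into the surfactant bodies of the lung, was at 128, 138 and 155 CPM (lowest, median and highest) with corn oil/cellulose and at 78.2, 110 and 119 CPM with fish oil/pectin. The groups did not overlap, and fish oil/pectin library 7 stood lowest (log2 fold change -0.37 ± 0.08, edgeR adjusted p = 0.00129; -0.31 without that library). Abca5, a transporter of late endosomes and lysosomes, was low, at 2.54, 2.82 and 3.40 CPM and at 0.793, 1.42 and 2.37 CPM, again with no overlap (-0.92 ± 0.17, adjusted p = 0.000758). Its 2 fish oil/pectin libraries without the GC prefix, at 2.01 and 2.37 CPM, were the highest of their diet.

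Abca1, which loads cholesterol and phospholipid onto apolipoprotein A-I, ran from 5.59 through 14.8 to 24.3 CPM with corn oil/cellulose and from 1.72 through 7.82 to 11.6 CPM with fish oil/pectin. All 7 fish oil/pectin libraries lay below the corn oil/cellulose median, but only library 7 lay below the lowest corn oil/cellulose library (log2 fold change -0.94 ± 0.28, adjusted p = 0.0139). Abca12, the lipid transporter of skin lamellar granules, at 32.5 ± 9.81 and 24.6 ± 9.61 CPM (-0.42 ± 0.24, adjusted p = 0.174), and the sterol exporter Abcg1, at 2.40 to 4.28 and 1.85 to 4.04 CPM (0.01 ± 0.16, adjusted p = 0.976), did not pass. Abca7 was the second most abundant of the group in CPM after Abca3, at 105 ± 10.6 and 100 ± 9.56 CPM (-0.10 ± 0.06, adjusted p = 0.172). Abca2, at 11.9 to 17.1 and 9.29 to 17.1 CPM (-0.21 ± 0.12, adjusted p = 0.185), did not pass over all libraries. Abca13, barely expressed at 0.522 ± 0.225 and 0.257 ± 0.218 CPM, did not pass over all libraries either (-0.92 ± 0.42, adjusted p = 0.0852). It passed without corn oil/cellulose library 2 (adjusted p = 0.0285) and in the GC-named libraries of the joint fit (adjusted p = 0.0192).

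**Figure D3:**
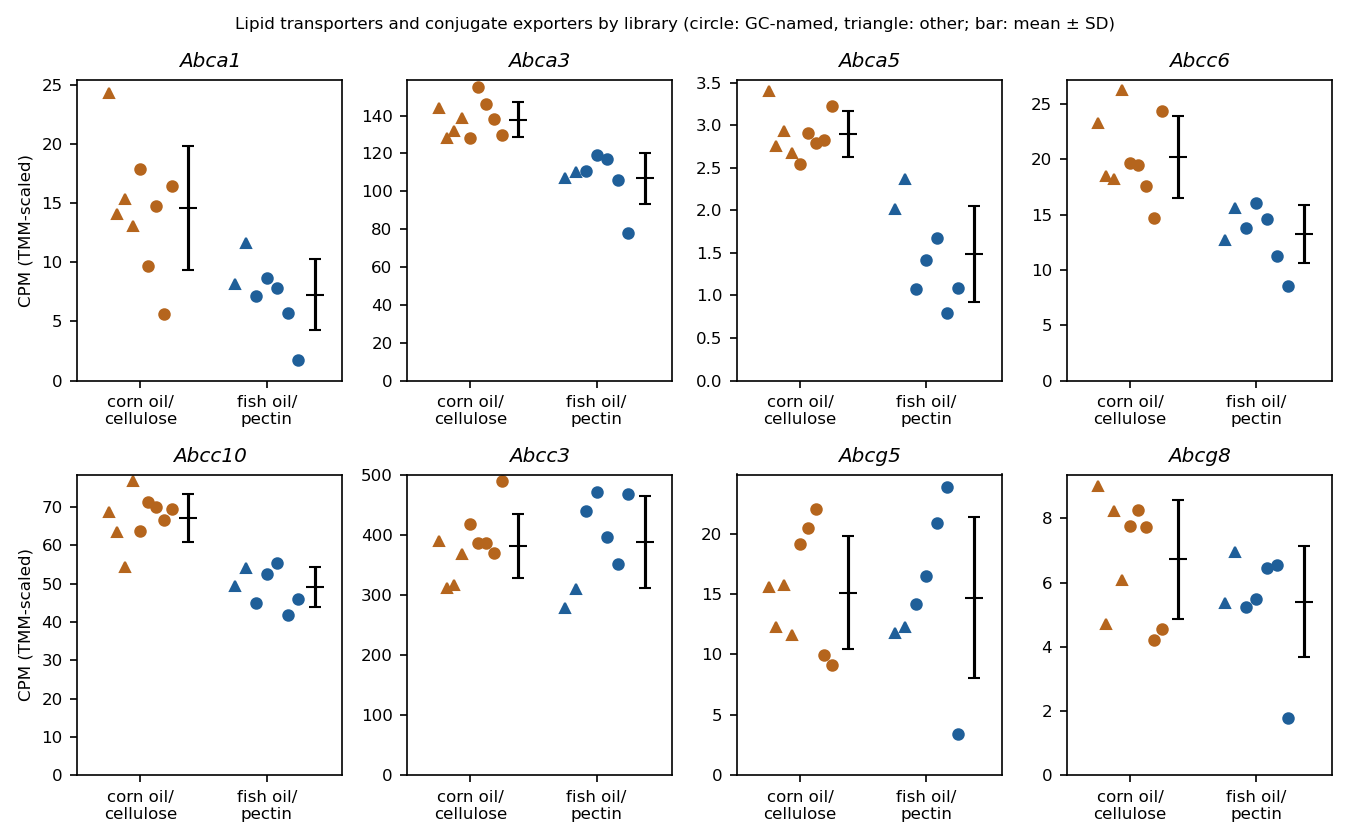
Level in each library (y axis, TMM-scaled CPM, from 0; a separate scale for each gene) of 3 lipid transporters that fell (Abca1, Abca3, Abca5), 2 conjugate exporters that fell (Abcc6, Abcc10), Abcc3, which did not pass, and the heterodimer partners Abcg5 and Abcg8; bars are the mean ± SD of 9 corn oil/cellulose and 7 fish oil/pectin libraries. Abca3 and Abca5 have no overlap between diets, Abcc3 overlaps in 5 of 7 fish oil/pectin libraries, and fish oil/pectin library 7 is the lowest point for Abcg5 (3.44 CPM) and Abcg8 (1.78 CPM).

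Abcg5 and Abcg8 encode the partners of 1 sterol exporter, which returns plant sterols and cholesterol to the gut lumen. They are transcribed away from each other on chromosome 17 (GRCm38), with RefSeq starts at 84683011 (Abcg5, minus strand) and 84683121 (Abcg8, plus strand). The 109 bases between these starts, on the plus strand, are given because the genes share them. In GENCODE M21 Abcg8 starts at 84676302, inside Abcg5, so this stretch lies within Abcg8. It does not precede every Abcg8 transcript. The capitals mark TATAAA read on the minus strand.
Abcg5 to Abcg8, chr17:84683012-84683120, plus strand: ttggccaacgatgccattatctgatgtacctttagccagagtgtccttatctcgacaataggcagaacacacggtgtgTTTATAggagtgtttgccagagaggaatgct
In RefSeq windows of 250 bases upstream, 12.4% held TATAAA on either strand. Neither gene passed the test between diets: Abcg5 was at 9.13, 15.6 and 22.1 CPM (lowest, median and highest) with corn oil/cellulose and 3.44, 14.2 and 23.9 CPM with fish oil/pectin (log2 fold change -0.09 ± 0.29, adjusted p = 0.827). Abcg8 was at 4.21, 7.74 and 9.01 CPM and 1.78, 5.50 and 6.95 CPM (-0.29 ± 0.23, adjusted p = 0.318). Across the 16 libraries their log2 CPM varied together (Pearson r = 0.879, permutation p = 0.00026, adjusted p = 0.00078; Spearman rho = 0.700, permutation p = 0.00316, adjusted p = 0.019; 6 relations computed). Without the 2 libraries farthest from the Abcg5 median, fish oil/pectin 7 and corn oil/cellulose 9, r was 0.609 (permutation p = 0.0227, adjusted p = 0.0341) and rho 0.556 (adjusted p = 0.0744). Pearson r was 0.964 over the 10 GC-named libraries (adjusted p = 0.00078) and 0.831 over the 6 others (permutation p = 0.06). In GENCODE M21 their exons overlap on opposite strands, and no source used here gives the strand setting of the counting, so some counts may be shared between them. Among other members, Abcb1a, Abcb1b, Abca3 and Abcc10 also overlap exons of a gene on the opposite strand (Gm42686, Gm5106, D330041H03Rik and Dlk2), with the same limit.

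Of 9 genes for transport into or out of mitochondria, peroxisomes and lysosomes, 8 were tested, and Abcd4, which acts in the lysosomal release of vitamin B12, fell by 0.17 ± 0.06 on the log2 scale (adjusted p = 0.0419). Abcd4 overlapped widely between diets, at 18.9, 23.8 and 26.3 CPM and at 18.0, 21.4 and 25.6 CPM, and lost its call under 20 of 33 alternatives, among them leaving out single libraries (numbers 1, 4, 5, 6 and 9 of corn oil/cellulose, and 1, 2, 5, 6 and 7 of fish oil/pectin). Abcd3 ran from 291 through 309 to 345 CPM with corn oil/cellulose and from 258 through 291 to 365 CPM with fish oil/pectin (-0.03 ± 0.07, adjusted p = 0.757). The mitochondrial genes Abcb8 (0.01 ± 0.06) and Abcb10, of haem and biliverdin metabolism (0.00 ± 0.06), did not pass. Neither did Abcb6 (0.03 ± 0.17) or the lysosomal peptide transporter Abcb9 (0.11 ± 0.10). The group summed to 577 to 625 CPM with corn oil/cellulose and 528 to 640 CPM with fish oil/pectin, and its median log2 fold change was 0.01.

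The translation factors of subfamilies E and F lay above 0 in all 4 cases, and 2 rose, where 21.7% of all genes rose. Abcf1, which binds initiation factor eIF2, was at 138, 160 and 175 CPM (lowest, median and highest) with corn oil/cellulose and at 160, 175 and 204 CPM with fish oil/pectin (log2 fold change 0.16 ± 0.05, edgeR adjusted p = 0.00974). Abcf2 was at 41.1, 51.7 and 58.3 CPM and at 48.0, 59.6 and 66.4 CPM, with 6 of 7 fish oil/pectin libraries above the highest corn oil/cellulose library (0.24 ± 0.08, adjusted p = 0.0199). Abcf3, at 60.7 ± 3.94 and 65.3 ± 5.83 CPM (0.07 ± 0.05, adjusted p = 0.211), and the ribosome recycling factor Abce1, at 92.2 ± 11.9 and 102 ± 25.8 CPM (0.16 ± 0.12, adjusted p = 0.277), did not pass. Scaling by total counts moved the median of all genes to -0.08, and neither Abcf1 (0.09, adjusted p = 0.149) nor Abcf2 (0.16, adjusted p = 0.119) passed under it.

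Of the 2 potassium channel subunits Abcc8, the sulfonylurea receptor of the pancreatic beta cell, was tested and did not pass (4.18 ± 0.96 and 3.85 ± 1.31 CPM, log2 fold change -0.13 ± 0.19). Abca14, at 0.601 ± 0.164 and 0.483 ± 0.152 CPM, did not pass (-0.27 ± 0.24). The untested members were Abca4, Abca6, Abca8a, Abca8b, Abca9, Abca15, Abca16, Abca17, Abcb1b, Abcb4, Abcb5, Abcb11, Abcc9, Abcc12, Abcd2, Abcg3 and Abcg4. Of these Abca16 and Abcb5 were at 0 in every library, and Abcb1b, Abcb4 and Abcg3 reached the highest count seen among them, 11.

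The diet effect was also fitted within each name form. In GC-named libraries 10 ABC genes fell (among them Abca1, Abca2, Abca3, Abca5, Abca13, Abcb1a, Abcc1, Abcc6 and Abcc10) and 2 rose (Abcf1 and Abcg2), where over all genes 21.8% fell and 23.1% rose (45% called). In the other libraries 0 ABC genes passed in this edgeR fit, as did 0% of all genes. Over all genes 291 passed there when fish oil/pectin library 7, a GC-named one, was left out. Fitted alone, these 6 libraries called 900 genes, among them 2 ABC genes that fell (Abcb1a and Abca3) and 1 that rose (Abce1, 0.54, adjusted p = 0.0265). Median log2 fold changes of the ABC genes were -0.15 and -0.11, and of all genes 0.00 and -0.01. The difference between name forms passed for 3 ABC genes, and for 8.41% of all genes (1204). Over all genes it passed for 261 without fish oil/pectin library 1 and for 6 without library 2. Abca2, a lipid transporter of late endosomes, was at -0.50 ± 0.11 with the prefix and 0.30 ± 0.14 without it (difference -0.80 ± 0.18, adjusted p = 0.0188). Abcc1 was at -0.57 ± 0.08 and 0.02 ± 0.10 (-0.58 ± 0.13, adjusted p = 0.0187), and Abcg2 at 0.37 ± 0.09 and -0.17 ± 0.12 (0.54 ± 0.15, adjusted p = 0.0362). None of the 3 differences passed without fish oil/pectin library 1 or 2, the only ones of that diet without the prefix. That of Abcg2 also failed when number 1, 3, 5, 6 or 8 of corn oil/cellulose was left out, as when number 4 of fish oil/pectin was. Abcb1a (-1.19 and -1.27), Abcc6 (-0.57 and -0.61) and Abca3 (-0.39 and -0.32) had close values in the forms, and Abca5 was at -1.23 and -0.42 (difference -0.80 ± 0.29, adjusted p = 0.0969).

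**Figure D4:**
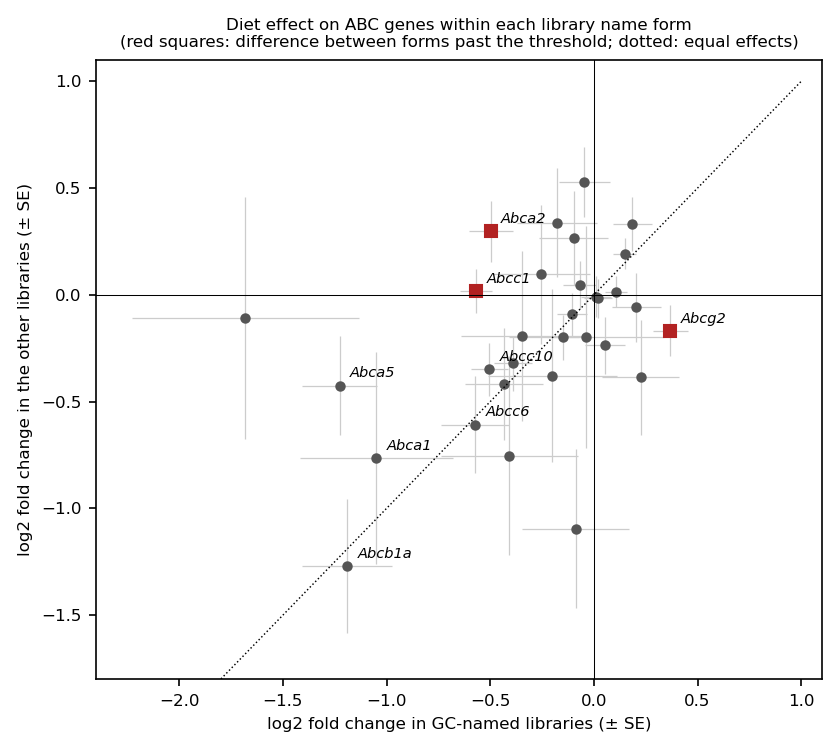
Log2 fold change between diets in the GC-named libraries (x axis, 5 against 5 libraries) and in the others (y axis, 2 fish oil/pectin against 4 corn oil/cellulose), each ± SE, for 31 of the 33 tested ABC genes; the dotted line marks equal effects. Abcb1a lies near the line at -1.19 and -1.27, while the red squares Abca2, Abcc1 and Abcg2, whose effects differed between forms, lie away from it.

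Partners and regulators of ABC transport were read from a list of 51 genes, of which 48 were tested, 12 fell and 4 rose (median log2 fold change -0.06), where 20.1% of all genes fell and 21.7% rose. Of the family genes under other symbols, Cftr, the apical chloride channel, fell from 273 ± 36.3 to 209 ± 52.5 CPM (-0.35 ± 0.09, adjusted p = 0.00456; -0.52 with the GC prefix and -0.05 without). The peptide transporters of antigen presentation, Tap1 (0.21 ± 0.12, adjusted p = 0.147) and Tap2 (-0.00 ± 0.08), did not pass. Of 17 tested receptors and their partners 6 fell and 1 rose. The fatty acid receptor Ppara fell from 24.0 ± 5.22 to 13.3 ± 4.31 CPM (-0.79 ± 0.14), the xenobiotic sensor Ahr from 20.7 ± 2.64 to 15.2 ± 3.35 CPM (-0.40 ± 0.08) and the vitamin D receptor Vdr from 675 ± 74.5 to 529 ± 79.8 CPM (-0.38 ± 0.08, adjusted p = 0.00179). Keap1, which holds the antioxidant regulator NRF2 in check, rose from 76.2 ± 2.22 to 84.8 ± 5.05 CPM (0.15 ± 0.05, adjusted p = 0.0146). Its call was lost under 7 of 33 alternatives, among them total counts scaling (0.07, edgeR adjusted p = 0.179) and the replicate block (0.16, adjusted p = 0.109).

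The pregnane X receptor Nr1i2, a known activator of Abcb1a in the gut, was at 137 ± 14.3 and 130 ± 21.8 CPM (-0.13 ± 0.07, adjusted p = 0.137). The liver X receptors, known activators of Abca1, Abcg5 and Abcg8, were at -0.04 ± 0.09 (Nr1h3) and 0.01 ± 0.05 (Nr1h2) and did not pass. Of 7 tested genes of sterol handling Scarb1, a lipoprotein receptor, rose (0.38 ± 0.07, adjusted p = 0.0007) and Npc1, which moves cholesterol out of lysosomes, fell (-0.40 ± 0.10, adjusted p = 0.00562). The scaffold gene Slc9a3r1 (0.33 ± 0.10, adjusted p = 0.016) and the organic cation transporter gene Slc22a18 (0.33 ± 0.10, adjusted p = 0.0114) rose. Msn, the membrane-to-actin linker moesin, fell over all libraries (-1.41 ± 0.30, adjusted p = 0.0018). All 3 differed between name forms: in GC-named and other libraries Slc9a3r1 was at 0.56 and -0.13, Slc22a18 at 0.52 and -0.05, and Msn at -2.17 and 0.18. The difference passed whichever library was left out for Msn; that of Slc9a3r1 had an adjusted p of 0.0503 when fish oil/pectin library 1 was left out and 0.141 when library 2 was, and that of Slc22a18 failed for 6 of the libraries left out in turn, these 2 included (adjusted p of 0.121 and 0.18).

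Markers of other cells and exon length also moved between diets. Of 7 tested T cell markers 6 fell, where over all genes 20.1% fell and 21.7% rose. All 8 T cell markers summed to 8.6 to 55.9 CPM with corn oil/cellulose and 9.82 to 26.8 CPM with fish oil/pectin, and none was at 0 throughout. In GC-named libraries all 7 tested T cell markers fell (Cd3e from a mean of 6.36 to 1.92 CPM), where 21.8% of all genes fell. In the others 0 passed (Cd3e at 1.01 and 0.871 CPM, Cd247 at 0.285 and 0.451 CPM). As 0% of all genes passed there in that fit, this cannot show that the markers were unchanged. The difference between forms passed for Cd247 (adjusted p = 0.0346). Of 10 colonocyte markers 5 rose, summing to 15100 to 19200 CPM and 14500 to 24600 CPM, and of 10 surface colonocyte markers 3 rose and 1 fell. Fibroblast markers reached at most 24 counts. Of the smooth muscle and pericyte markers Pdgfrb alone was tested and fell (-0.56; list sums 8.63 to 16.4 and 6.28 to 11.8 CPM, Rgs5 at 0), and 0 of 2 tested endothelial markers passed (6.87 to 12.6 and 4.02 to 11.9 CPM, Cdh5 at 0). Of 2 tested glial and neuronal markers 1 fell (sums of all 5, 2.09 to 4.16 and 1.26 to 2.59 CPM, Sox10 at 0). Of 5 tested myeloid markers Cd14 rose (0.35) and Lyz2 fell (-0.90; sums 35.1 to 50.5 and 42.9 to 83.9 CPM). With a score of non-epithelial markers in the model Abcb1a was at -1.33 (adjusted p = 0.0174), and it, Abca3, Abca5 and Abcc10 were the 4 that still passed. Distal colon markers (Hoxd13, Hoxb13, Hoxa13) summed to 147 CPM in fish oil/pectin library 7, against 316 to 613 CPM with corn oil/cellulose; without that library Abcb1a was at -1.12 (adjusted p = 0.000173).

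The tested ABC genes are long, with a median exon length of 6389 bases against 4106 over all tested genes with a length, and 16 of the 33 lay in the longest of 4 equal bins of genes and 0 in the shortest. The median log2 fold change over all genes was 0.20 in the shortest bin and -0.20 in the longest, where the ABC genes had a median of -0.36. In the next longest bin the medians were -0.05 over all genes and 0.01 over 13 ABC genes. With each library's trend on exon length removed, Abcb1a was at -1.17 (adjusted p = 0.000695), Abca5 at -0.71 and Abca3 at -0.20 (adjusted p = 0.0333), whereas Abcc1 (-0.07, adjusted p = 0.405), Abcc5 (-0.23, adjusted p = 0.23) and Abcd4 (-0.03, adjusted p = 0.747) no longer passed, nor did Abcf2 (0.10, adjusted p = 0.361). Abcg2 passed under that setting (0.33, adjusted p = 0.0211).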

How the data were processed

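Colonocyte RNA of 16 libraries was sequenced. The authors deposited raw read counts per gene symbol, with no normalisation. Per the labels' protocols, 200 ng of total RNA entered a stranded mRNA preparation, and the submitters' processing notes name STAR 2.6.0a, HTSeq 0.11.1 and GRCm38. For strand setting and annotation release: not given in the sources used here. No per-sample column was unused (0), and library totals of 13996288 to 19512755 counts limit precision for low genes.

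Identifiers, coordinates and exon lengths come from GENCODE M21 (98.9% of symbols and all 50 ABC genes matched), and upstream sequences from RefSeq, with a window for 38 of the 50. Counts were fitted in edgeR 4.0.16 under R 4.3.3: TMM scaling, filterByExpr (14321 genes kept), the robust quasi-likelihood test with terms for name form and diet, Benjamini-Hochberg adjustment over all genes and a threshold of 0.05. SE was taken as |log2 fold change| / sqrt(F). Means and ranges in CPM are TMM-scaled and not adjusted for the name form. Within-form effects come from a joint fit. Ratios between paralogs used a prior count of 0.5 and needed a mean count of at least 3. The fit was tested on simulated counts. Some genes are counted but not reported by name here.

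Members, roles, lists and tests were chosen with earlier results of these data known. Values were to be given for Abcb1a and its paralogs, the 8 lowest p in each direction, Abcg5 and Abcg8, the 6 highest levels per kilobase, up to 3 examples for each role and up to 4 pathway genes in each direction; other pathway genes named, and Abcd4, were chosen after their values were seen. Other scalings, filters, covariates, thresholds, subsets of libraries, DESeq2 1.42.0 and limma 3.58.1 were alternatives, and leaving out fish oil/pectin libraries 6 and 7 together was added after seeing the data. The labels number biological replicates without naming mice, so p-values reflect only the variation among these libraries. Libraries of 1 diet differed by at least 8.2 in chi-square per degree of freedom over 57 pairs.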

Additional observations from a re-analysis of the deposited data

Results flagged for a closer look

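In 4 of 84 groups of libraries examined (the 33 tested ABC genes and 9 related genes, in each diet) 1 library stood apart from the rest of its diet, and chance alone gives about 1 in 20. Abca12 was at 53.8 CPM in corn oil/cellulose library 1, with the next highest at 36.7 CPM. Fish oil/pectin library 7 was low for Abca3, at 78.2 CPM with the next at 106 CPM, and for Abcg8, at 1.78 CPM with the next at 5.24 CPM. Abcf2 was at 48.0 CPM in fish oil/pectin library 4, with the next lowest at 59.4 CPM.

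The diet effect differed between GC-named and other libraries, by the test of the difference itself, for the ABC genes Abca2 (-0.795 on the log2 scale), Abcc1 (-0.584) and Abcg2 (0.538). Over all genes the difference passed for 8.41%, and none of these 3 passed without fish oil/pectin library 1 or 2. The diet effect also differed for the related genes Msn (-2.352), Slc22a18 (0.562) and Slc9a3r1 (0.686). What the name form stands for is not known, and the forms also differed in sex as read from Y-linked genes: over 100 counts of these were present in all 6 libraries without the prefix and in 3 of the 10 with it. Sex was uneven between diets too. With the prefix 2 of 5 corn oil/cellulose and 1 of 5 fish oil/pectin libraries had such counts, and without it 4 of 4 and 2 of 2 did. With sex in the model Abcb1a was at -1.24 (adjusted p = 0.000816), 8 ABC genes fell and 2 rose. Of all 14321 genes 2700 fell and 2881 rose in that fit.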

How the results depend on the processing

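Abcb1a kept its direction and its call under all 33 alternatives run for it, with log2 fold changes from -1.30 to -1.12 without any 1 library, -1.08 without fish oil/pectin libraries 6 and 7 together, and -1.41 (adjusted p = 0.019) with a replicate block. Abca3 also kept its call throughout. The count of ABC genes that fell was 7 to 10 and that of those that rose 2 to 3 when each library was left out, against 9 and 2. For risers the count was 1 with the replicate block, in GC-named libraries alone, in the others alone, with no filter on low counts, without fish oil/pectin libraries 6 and 7, or at a threshold of 0.01, and 0 under total counts scaling or with the non-epithelial marker score. Neither Abcf1 nor Abcf2 passed in either name form fitted alone: the 1 riser was Abcg2 (0.345, adjusted p = 0.00856) with the prefix and Abce1 (0.540) without it. For those that fell it was 2 in a fit of the libraries lacking the GC prefix and 4 with the marker score. With the length trend removed Abcc1, Abcc5 and Abcd4 lost their calls, and of all 14261 genes tested there 2151 fell. At a threshold of 0.01 Abca1, Abcc5 and Abcd4 did not pass. Of the 51 related genes 4 rose and 12 fell: the risers were 1 with the replicate block, in libraries lacking the prefix, with the marker score or at a threshold of 0.01, and 2 with the length trend removed or without libraries 6 and 7. Those that fell were 3 in libraries lacking the prefix, 4 with the marker score, and 7 without libraries 6 and 7 or at a threshold of 0.01. Leaving out each library gave 4 to 5 risers and 9 to 12 that fell. In libraries lacking the prefix the sign turned for Abcc1 (0.028), Msn (0.191), Slc22a18 (-0.037) and Slc9a3r1 (-0.120). The number of ABC genes that differed between name forms, 3, ran from 0 to 4 over single libraries left out. The log2 ratio of Abcb1a to Abcb1b (-0.507 to 0.041) and to Abcb4 (-0.387 to 0.061) passed under no alternative; with a prior count of 2 the differences were -0.495 (adjusted p = 0.148) and -0.576 (adjusted p = 0.0556).

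Over all genes 5979 passed, against 3494 with the replicate block, 1469 with the marker score and 900 in libraries lacking the prefix. Total counts scaling gave 2247 higher and 3779 lower, against 3103 and 2876. Replicate numbers did not pair the samples: same-numbered libraries correlated from -0.078 to 0.454 over 7 pairs, and 1 fish oil/pectin library correlated best with its own number. Of the 22 ABC genes that did not pass, 14 changed sign under at least 1 alternative and 7 passed under some. For the 17 untested members counts limit any comparison. The causes of these changes were not tested.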
